A study of Homo sapiens with 9 samples.

Results

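The Kruppel-like factors measured here are 10 genes of the deposited table whose gene name is KLF2, KLF3, KLF4, KLF5, KLF6, KLF9, KLF10, KLF11, KLF13 or KLF15. Each name matched 1 row, so the family subset is 10 of 60612 genes, and 9 of the 10 (all but KLF2) passed the expression minimum among 12830 genes tested. The libraries came from VCaP, an established prostate cancer cell line with androgen receptor and the TMPRSS2-ERG fusion. Cells received siRNA 1 against KMT2C (3 libraries), siRNA 2 against KMT2C (3 libraries) or a control siRNA (3 libraries), and all were kept for 4 days after transfection. All groups are therefore transiently transfected cells of a single line, the sequence of neither siRNA is known here, and nothing says that the replicates were separate cultures. The p-values then measure the spread among these libraries alone, and that spread may be technical.

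Kruppel-like factors are transcription factors that share a C-terminal block of zinc fingers and bind GC boxes and CACCC elements in promoters and enhancers. Their N-terminal parts differ and recruit either coactivators or corepressors, so that members with the same DNA preference can raise or lower the same gene. In epithelia, KLF4 and KLF5 are known for opposing roles in differentiation and proliferation, and several members are rapidly induced by growth factors, TGF-beta, shear stress or glucocorticoids. KMT2C encodes a histone H3 lysine 4 methyltransferase that acts mainly at enhancers.

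The 250 bases before the annotated start are shown for KLF5, the member with the largest fall, for KLF13, which rose, and for its relative KLF9, which did not rise (RefSeq, GRCh38.p14, 5′ to 3′). Capitals mark CACCC and GGGCGG on either strand, so also GGGTG and CCGCCC.
KLF5, chr13:73054726-73054975, plus strand: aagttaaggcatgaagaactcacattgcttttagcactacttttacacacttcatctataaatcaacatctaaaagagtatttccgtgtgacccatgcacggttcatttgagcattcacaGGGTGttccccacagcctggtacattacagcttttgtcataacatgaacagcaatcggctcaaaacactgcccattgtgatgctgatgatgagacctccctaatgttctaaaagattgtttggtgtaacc
KLF13, chr15:31326585-31326834, plus strand: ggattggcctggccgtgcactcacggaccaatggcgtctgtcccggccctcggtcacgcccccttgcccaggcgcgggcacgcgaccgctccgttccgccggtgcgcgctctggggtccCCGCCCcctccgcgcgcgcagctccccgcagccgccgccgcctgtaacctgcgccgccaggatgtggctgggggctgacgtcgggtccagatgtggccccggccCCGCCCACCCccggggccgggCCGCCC
KLF9, chr9:70414658-70414907, minus strand: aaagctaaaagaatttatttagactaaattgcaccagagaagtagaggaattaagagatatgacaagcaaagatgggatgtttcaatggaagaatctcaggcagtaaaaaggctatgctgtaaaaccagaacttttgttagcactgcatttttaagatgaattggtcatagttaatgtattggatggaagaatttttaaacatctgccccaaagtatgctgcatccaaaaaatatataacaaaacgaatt
The KLF5 window held 1 CACCC and no GGGCGG and had a GC content of 40.8%. A second annotated KLF5 start lies further downstream, and its window, not shown, held 2 CACCC and 2 GGGCGG at 70.8% GC, and the gene-level values do not tell the starts apart. The KLF13 window held 1 CACCC, which shares a base with 1 of its 3 GGGCGG matches, at 78.8% GC, and the KLF9 window held neither motif at 32.4% GC. Among all 35116 promoter windows of this length, 54.7% held CACCC, 42.6% held GGGCGG, and the median GC content was 58%.

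The libraries held 58462215 to 70726213 deposited counts each, and close to 4 counts appeared to stand for 1 sequenced fragment. This is inferred from low values: 4 occurred 11286 times, against 4677 times for 3 and 2524 times for 5. The values 1 and 2 were also frequent, at 6621 and 5430 times. KMT2C was at 1.54, 1.80 and 2.28 FPKM (a level per transcript length and sequencing depth) with siRNA 1, at 1.72, 1.64 and 1.73 FPKM with siRNA 2, and at 13.7, 12.1 and 12.9 FPKM in control libraries, so the knockdown matched the labels in every library. Of 9 markers of luminal prostate cancer cells, 9 reached 1 FPKM, and of 5 retinal markers, checked because the design text calls the RNA retinal, none did (summed over the 5, 0.0160 to 0.0457 FPKM with siRNA 1, 0.0270 to 0.0760 with siRNA 2 and 0.0480 to 0.0543 in control). The summed luminal markers were lower with the knockdown, at 839 to 856 FPKM with siRNA 1 and 842 to 861 with siRNA 2, against 1642 to 1731 in control, and their part in the results was not tested. Basal markers (KRT5, KRT14 and TP63) summed to 6.27 to 7.86 FPKM with siRNA 1, 0.719 to 0.886 with siRNA 2 and 2.37 to 2.63 in control, nearly all of it KRT14, and fibroblast, endothelial and leukocyte markers summed to at most 0.239, 0.361 and 0.947 FPKM in any library. In these bulk libraries, fewer cells of a kind and less RNA per cell cannot be told apart.

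Most of the 9 tested members changed, in both directions. KLF5, a driver of epithelial proliferation, fell strongly with each siRNA, KLF6 fell moderately and KLF3 by a small amount. KLF10 and KLF13, both SIN3-recruiting repressors, rose with each siRNA. The other SIN3-recruiting members did not rise: KLF9 fell with siRNA 1 and KLF11 with siRNA 2, and neither was called with the other siRNA. With siRNA 1, 2 members rose and 5 fell, where 21.2% of all tested genes rose and 20.5% fell (41.7% in either direction). With siRNA 2, 2 rose and 5 fell, where 24.4% of all tested genes rose and 24.9% fell (49.3% in either direction). The median log2 fold change of the 9 was -0.26 with siRNA 1 and -0.32 with siRNA 2, beside 0.01 and 0.02 over all tested genes. In the average of both siRNAs, 2 rose and 4 fell, where 23.0% and 24.5% of all genes did so (47.5% in either direction). The 4 were KLF3, KLF5, KLF6 and KLF11. Of these, KLF11 (-0.31 ± 0.07 in the average, adjusted p = 0.00744) was called with siRNA 2 and not with siRNA 1. The comparisons of each siRNA with control share the control libraries. Calls rest on an adjusted p under 0.05 (edgeR quasi-likelihood, Benjamini-Hochberg over all 12830 genes), and log2 fold changes carry ± SE. Log2 fold changes run as siRNA minus control unless another direction is given.

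**Figure D1:**
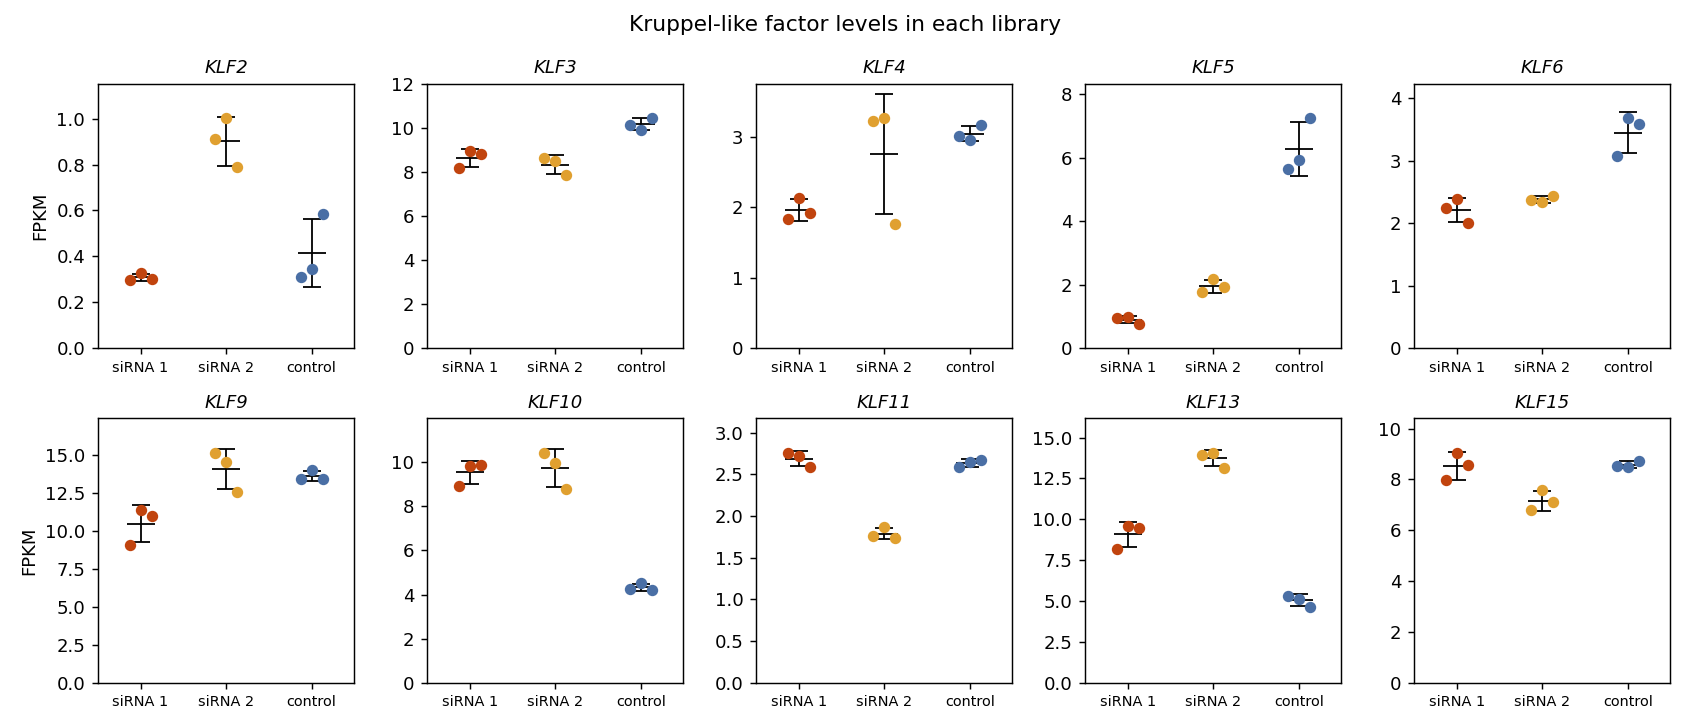
Level of each of the 10 Kruppel-like factors in FPKM (vertical axes, each from 0) in the 3 libraries of siRNA 1, siRNA 2 and control; points are libraries, and the black marks are the mean and SD. KLF5 is lowest with siRNA 1 and highest in control, KLF10 and KLF13 are higher with both siRNAs than in control, and the third siRNA 2 library of KLF4 lies at 1.77 FPKM, apart from the other two.

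KLF5 (ENSG00000102554, hg38 chromosome 13, 73054976 to 73077541, plus strand), which promotes proliferation in epithelial progenitors, had the largest change of the family. It was at 0.950, 0.965 and 0.773 FPKM with siRNA 1, at 1.77, 2.16 and 1.92 FPKM with siRNA 2, and at 5.65, 5.94 and 7.25 FPKM in control libraries. No group overlapped another, with siRNA 1 lowest, siRNA 2 between and control highest. KLF5 was 7.12-fold lower with siRNA 1 (log2 fold change -2.83 ± 0.15, adjusted p = 6.10e-06) and 3.35-fold lower with siRNA 2 (-1.74 ± 0.15, adjusted p = 2.22e-05). It held place 50 from the lowest fold change among all tested genes with siRNA 1 and place 405 with siRNA 2. The difference between the siRNAs was itself past the threshold, at -1.09 ± 0.15 for siRNA 1 minus siRNA 2 (adjusted p = 5.26e-04). The gene passed the expression minimum through its 6 siRNA 2 and control libraries, since its siRNA 1 libraries were all under 1 FPKM.

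KLF6 (ENSG00000067082, chromosome 10, 3775996 to 3785209, minus strand), an injury- and growth-factor-induced activator described as a tumour suppressor in prostate, fell with each siRNA. Its level was 2.24, 2.39 and 2.01 FPKM with siRNA 1, 2.37, 2.33 and 2.43 FPKM with siRNA 2, and 3.07, 3.68 and 3.59 FPKM in control. All 6 knockdown libraries were below all 3 control libraries, while the siRNA groups overlapped. In log2 units the change was -0.66 ± 0.11 under siRNA 1 (adjusted p = 0.00130) and -0.59 ± 0.11 under siRNA 2 (adjusted p = 0.00173), and siRNA 1 minus siRNA 2, at -0.07 ± 0.11, missed the threshold (adjusted p = 0.627).

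KLF4 (ENSG00000136826, chromosome 9, 107484852 to 107490482, minus strand), a factor of epithelial differentiation and of reprogramming to pluripotency, had 1.84, 2.13 and 1.91 FPKM with siRNA 1, 3.22, 3.26 and 1.77 FPKM with siRNA 2, and 3.01, 2.96 and 3.16 FPKM in control. The siRNA 1 libraries were below every control library, whereas with siRNA 2 a pair of libraries lay above control and replicate 3 lay well below it. KLF4 fell with siRNA 1 (-0.66 ± 0.21, adjusted p = 0.0364), a call that was lost without a filter on low values and on leaving out any of the 3 siRNA 1 or 3 control libraries (adjusted p 0.0606 to 0.0923, and 0.00171 to 0.0923 over all 19 alternatives). With siRNA 2 its log2 fold change was -0.20 ± 0.21 (adjusted p = 0.466), and 0.03 without siRNA 2 replicate 3. Without that library the average of both siRNAs (-0.43 ± 0.18, adjusted p = 0.0815) became -0.31 and was called (adjusted p = 0.0228). The difference between the siRNAs, -0.46 ± 0.21 with all libraries (adjusted p = 0.124), became -0.69 without it and passed the test (adjusted p = 0.00253), with a range of 0.00253 to 0.335 over the alternatives.

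KLF2 (ENSG00000127528, chromosome 19, 16324826 to 16328685, plus strand), known for endothelial and lymphocyte quiescence, was the lowest member and was not tested in the main fit. It had 0.295, 0.327 and 0.303 FPKM with siRNA 1, 0.913, 1.00 and 0.791 FPKM with siRNA 2, and 0.311, 0.344 and 0.583 FPKM in control, from 61 to 225 counts. The siRNA 2 libraries were above all others, and the siRNA 1 libraries overlapped control. When every gene with a count was tested, KLF2 rose with siRNA 2 (1.03 ± 0.28, adjusted p = 0.0261) and had -0.43 ± 0.28 with siRNA 1 (adjusted p = 0.383); with edgeR's own expression filter the values were 1.01 ± 0.26 (adjusted p = 0.0152) and -0.46 ± 0.27 (adjusted p = 0.250). Reads may be shared with its pseudogenes, and KLF2P1 on chromosome 2 stood at 0.881, 0.690 and 0.637 FPKM with siRNA 1, 0.991, 1.34 and 1.30 with siRNA 2, and 0.388, 0.494 and 0.385 in control. The KLF2 values are therefore uncertain.

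KLF3 (ENSG00000109787, chromosome 4, 38664197 to 38701517, plus strand), a repressor that works through the CtBP corepressors, fell by a small amount with each siRNA. It was at 8.18, 8.94 and 8.81 FPKM with siRNA 1, at 8.63, 8.51 and 7.85 FPKM with siRNA 2, and at 10.1, 9.89 and 10.4 FPKM in control. Every knockdown library lay below every control library. In log2 units the change was -0.26 ± 0.06 under siRNA 1 (adjusted p = 0.00989) and -0.34 ± 0.06 under siRNA 2 (adjusted p = 0.00183). Exons of KLF3 and of KLF3-AS1 on the opposite strand share up to 266 bases in GENCODE 29, and without knowing whether strand was used in counting, reads of both cannot be told apart. KLF3-AS1 itself was between 0.0507 and 0.201 FPKM in all 9 libraries.

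KLF10 (ENSG00000155090, chromosome 8, 102648784 to 102655725, minus strand), a TGF-beta-inducible repressor of the SIN3-recruiting branch, rose with each siRNA by nearly the same amount. Its level was 8.93, 9.83 and 9.87 FPKM with siRNA 1, 10.4, 9.99 and 8.80 FPKM with siRNA 2, and 4.26, 4.51 and 4.20 FPKM in control. The knockdown libraries were all far above control, and the siRNA groups overlapped. In log2 units the change was 1.12 ± 0.09 under siRNA 1 (2.17-fold higher, adjusted p = 3.26e-05) and 1.11 ± 0.09 under siRNA 2 (2.17-fold higher, adjusted p = 1.37e-05).

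KLF11 (ENSG00000172059, chromosome 2, 10042849 to 10054836, plus strand), the closest relative of KLF10 and likewise TGF-beta-inducible, did not follow it. It had 2.76, 2.71 and 2.59 FPKM with siRNA 1, 1.76, 1.86 and 1.74 FPKM with siRNA 2, and 2.58, 2.64 and 2.68 FPKM in control. The siRNA 2 libraries stood below all others, and the siRNA 1 libraries overlapped control. KLF11 fell with siRNA 2 (-0.62 ± 0.08, adjusted p = 3.78e-04) and had 0.00 ± 0.08 with siRNA 1 (adjusted p = 0.985), and the difference for siRNA 1 minus siRNA 2 passed the test (0.62 ± 0.08, adjusted p = 5.62e-04). The ratio of KLF10 to KLF11 in FPKM was 3.55 ± 0.290 with siRNA 1 and 5.45 ± 0.440 with siRNA 2, against 1.64 ± 0.0697 in control (SD, n = 3). An antisense gene overlaps KLF11 exons by up to 416 bases, so reads of both cannot be told apart without strand.

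KLF13 (ENSG00000169926, chromosome 15, 31326835 to 31435586, plus strand), a SIN3-recruiting factor known from T cells and heart, rose with each siRNA and more with siRNA 2. It was at 8.18, 9.58 and 9.47 FPKM with siRNA 1, at 13.9, 14.1 and 13.2 FPKM with siRNA 2, and at 5.34, 5.15 and 4.64 FPKM in control. The 3 groups did not overlap, with control lowest and siRNA 2 highest. In log2 units the change was 0.82 ± 0.07 under siRNA 1 (1.77-fold higher, adjusted p = 7.95e-05) and 1.39 ± 0.08 under siRNA 2 (2.62-fold higher, adjusted p = 2.24e-06). The difference for siRNA 1 minus siRNA 2 was -0.57 ± 0.07 (adjusted p = 4.74e-04).

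KLF9 (ENSG00000119138, chromosome 9, 70384597 to 70414624, minus strand), a glucocorticoid-inducible relative of KLF13, was the most abundant member in each group by mean. Its level was 9.07, 11.3 and 10.9 FPKM with siRNA 1, 15.1, 14.5 and 12.6 FPKM with siRNA 2, and 13.4, 14.0 and 13.4 FPKM in control. The siRNA 1 libraries lay below all others, while siRNA 2 spread around control. KLF9 fell with siRNA 1 (-0.40 ± 0.10, adjusted p = 0.00983) and had -0.01 ± 0.10 with siRNA 2 (adjusted p = 0.968), with a difference of -0.40 ± 0.10 for siRNA 1 minus siRNA 2 (adjusted p = 0.0111). The ratio of KLF13 to KLF9 in FPKM was 0.871 ± 0.0292 with siRNA 1 and 0.980 ± 0.0627 with siRNA 2, against 0.372 ± 0.0262 in control (SD, n = 3).

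KLF15 (ENSG00000163884, chromosome 3, 126342635 to 126357408, minus strand), a glucocorticoid-inducible regulator of amino acid and glucose metabolism, changed little. It had 7.97, 9.04 and 8.56 FPKM with siRNA 1, 6.80, 7.58 and 7.11 FPKM with siRNA 2, and 8.52, 8.48 and 8.73 FPKM in control. The siRNA 2 libraries were below all others and siRNA 1 surrounded control. KLF15 fell with siRNA 2 (-0.32 ± 0.08, adjusted p = 0.00818) and had -0.03 ± 0.08 with siRNA 1 (adjusted p = 0.747). The difference for siRNA 1 minus siRNA 2 was 0.28 ± 0.08 (adjusted p = 0.0183), and this call was lost without siRNA 1 replicate 2, siRNA 2 replicate 1 or siRNA 2 replicate 3 (0.24, 0.25 and 0.28, adjusted p 0.0604, 0.0685 and 0.0516, within 0.00455 to 0.0685 over all 19 alternatives).

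**Figure D2:**
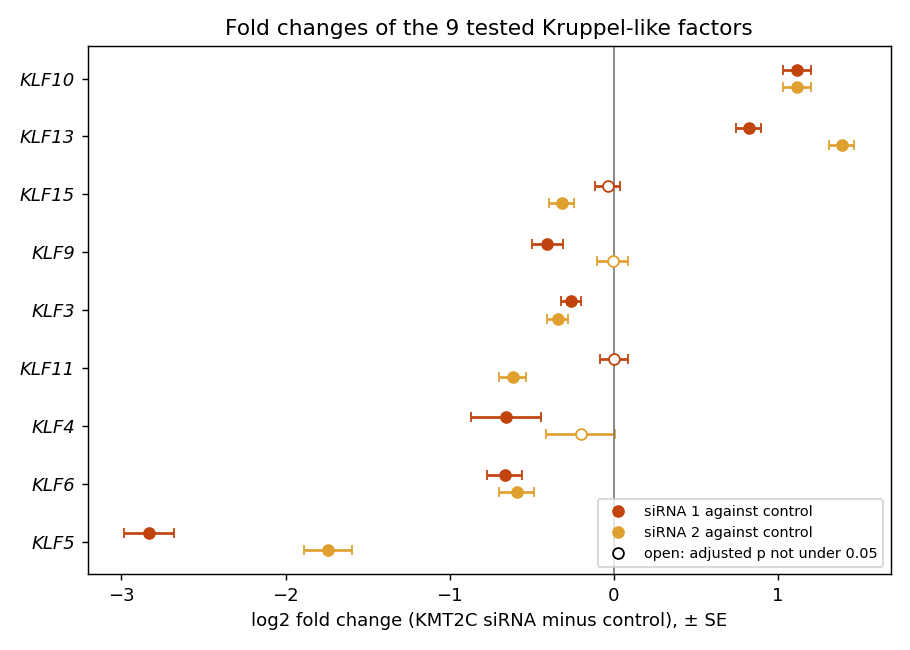
Log2 fold change (horizontal axis) of the 9 tested Kruppel-like factors with siRNA 1 (upper, dark points) and siRNA 2 (lower, light points) against control, with SE bars; open points did not pass the adjusted p of 0.05. KLF10 and KLF13 lie right of 0 with both siRNAs, and KLF3, KLF6 and KLF5 left of it, with KLF5 at -2.83 and -1.74.

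Set side by side, 5 members were called in the same direction with both siRNAs. KLF10 and KLF13 rose, where 13.2% of all tested genes rose with both, and KLF3, KLF5 and KLF6 fell, where 12.6% of all fell with both. The other 4 tested members were called with a single siRNA, KLF4 and KLF9 lower with siRNA 1, and KLF11 and KLF15 lower with siRNA 2. Among all tested genes, 6.47% were lower with siRNA 1 and not called with siRNA 2, and 10.4% were lower with siRNA 2 and not called with siRNA 1. No tested member was called in opposite directions, which held for 3.24% of all tested genes. In the 5 members called with both siRNAs, all 6 knockdown libraries lay on the same side of all 3 control libraries. These 5 were picked by their calls, so that separation is a description. The share of all tested genes separated in this way was not counted.

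The direct comparison of siRNA 1 with siRNA 2 asks which members responded unequally to 2 sequences against the same gene. KMT2C itself did not pass the test of a difference (0.17 ± 0.12, adjusted p = 0.309). Among the 9 members, KLF11 and KLF15 were higher and KLF5, KLF9 and KLF13 were lower with siRNA 1 than with siRNA 2. That is 2 of 9 higher and 3 of 9 lower, where 20.6% and 18.9% of all tested genes were so called (39.5% in either direction). KLF10 had a difference of 0.00 ± 0.08 (adjusted p = 0.994), KLF3 0.08 ± 0.06 (adjusted p = 0.320).

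**Figure D3:**
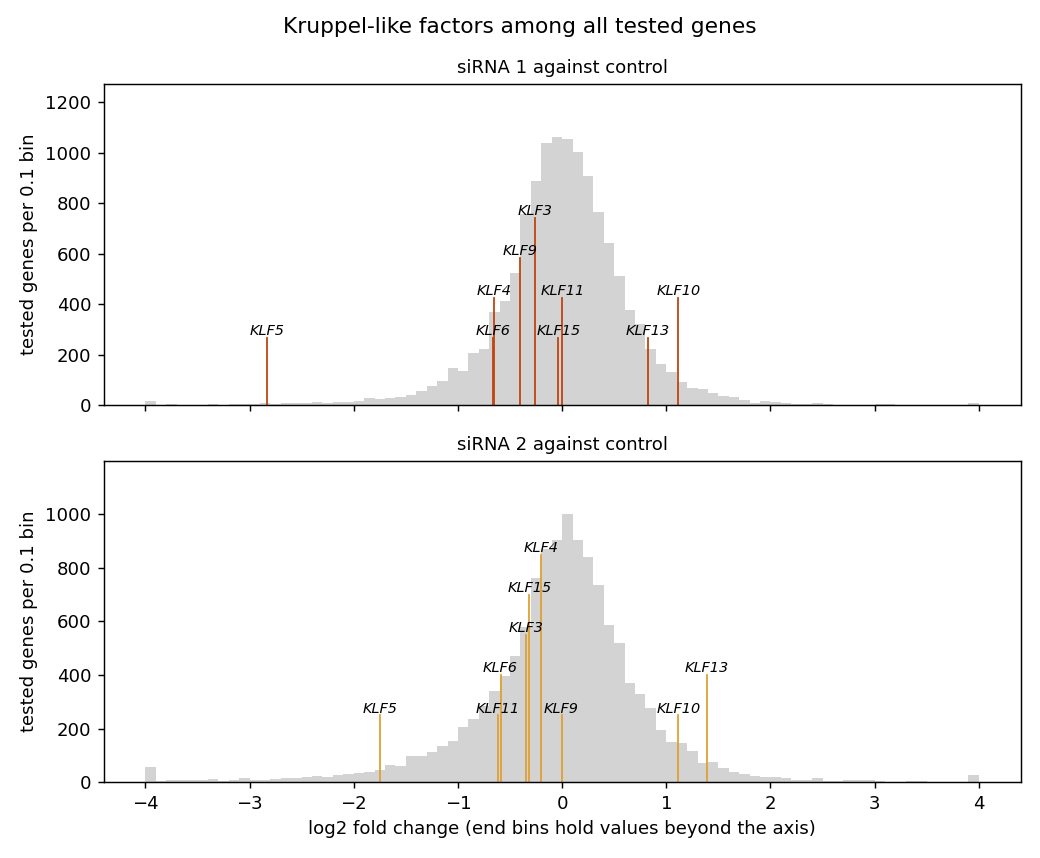
Log2 fold changes of all 12830 tested genes (grey histogram, genes per bin of 0.1; values beyond the axis are held in the end bins) with siRNA 1 (upper) and siRNA 2 (lower) against control, with the 9 tested Kruppel-like factors as lines whose heights carry no value. KLF5 lies in the left tail in both panels, at -2.83 and -1.74, and KLF10 and KLF13 on the right flank.

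The order of the family by level differed between groups. In siRNA 1 libraries the order by mean FPKM was KLF9 (10.5), KLF10 (9.54), KLF13 (9.08), KLF3 (8.64), KLF15 (8.52), KLF11 (2.69), KLF6 (2.21), KLF4 (1.96), KLF5 (0.896) and KLF2 (0.308). Of these, the ranges of each neighbouring pair from KLF9 to KLF15 overlapped, as did those of KLF6 and KLF4. In siRNA 2 libraries it was KLF9 (14.1), KLF13 (13.7), KLF10 (9.74), KLF3 (8.33), KLF15 (7.16), KLF4 (2.75), KLF6 (2.38), KLF5 (1.95), KLF11 (1.79) and KLF2 (0.902), and the neighbours KLF9 and KLF13, KLF4 and KLF6, and KLF5 and KLF11 overlapped. In control libraries it was KLF9 (13.6), KLF3 (10.2), KLF15 (8.58), KLF5 (6.28), KLF13 (5.04), KLF10 (4.32), KLF6 (3.45), KLF4 (3.04), KLF11 (2.64) and KLF2 (0.413), where only KLF6 and KLF4 overlapped among neighbours. KLF5 thus stood at place 9 with siRNA 1 and place 8 with siRNA 2, against place 4 in control. The ratio of KLF5 to KLF4 was 0.458 ± 0.0564 with siRNA 1 and 0.766 ± 0.283 with siRNA 2, against 2.06 ± 0.214 in control (SD, n = 3).

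The summed level of the 10 members moved less than its make-up. It was 54.3 ± 3.53 FPKM with siRNA 1 and 62.8 ± 4.03 FPKM with siRNA 2, against 57.5 ± 1.18 FPKM in control (SD, n = 3). The ranges of siRNA 1 and control overlapped. Those of siRNA 2 and control overlapped through siRNA 2 replicate 3 alone (58.1 FPKM, with control up to 58.6). All siRNA 1 libraries (50.4 to 57.3 FPKM) lay below all siRNA 2 libraries (58.1 to 65.3 FPKM). KLF10 and KLF13 made up 17.6% ± 0.371 and 16.7% ± 0.459 of the sum with siRNA 1 and 15.5% ± 0.487 and 21.9% ± 0.652 with siRNA 2, against 7.52% ± 0.344 and 8.78% ± 0.800 in control. KLF5 made up 1.66% ± 0.244 with siRNA 1 and 3.11% ± 0.336 with siRNA 2, against 10.9% ± 1.26 in control.

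**Figure D4:**
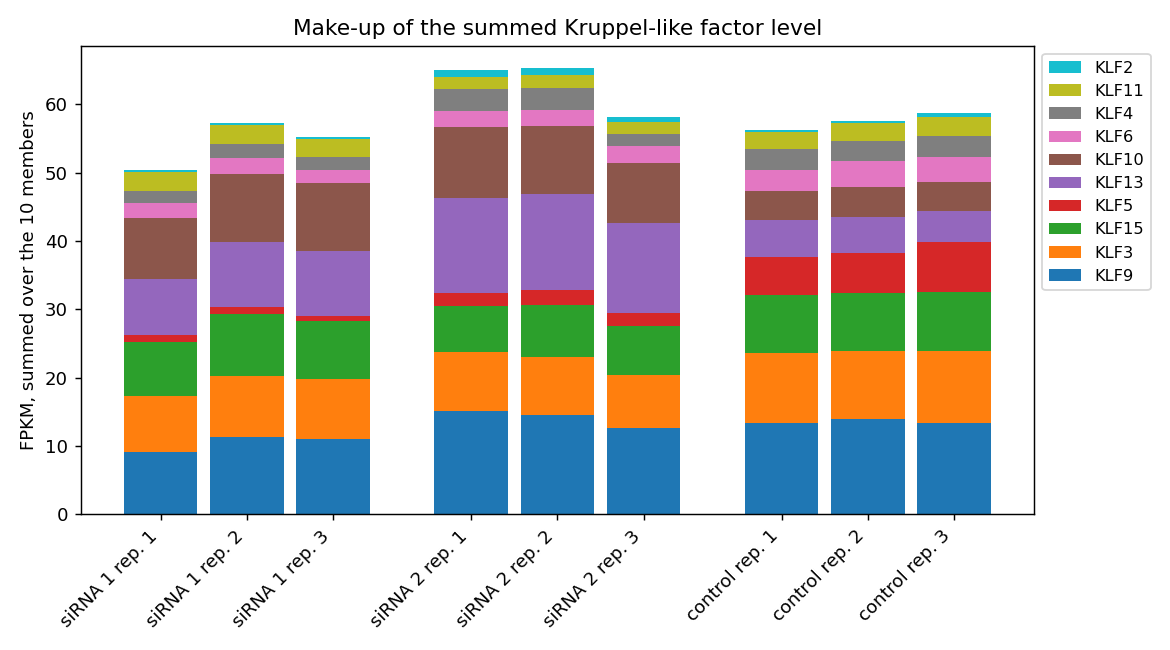
Level in FPKM of the 10 Kruppel-like factors stacked in each of the 9 libraries (bars from 0, siRNA 1, siRNA 2, control). The bar tops lie between 50.4 and 65.3 FPKM in all groups, while the KLF10 and KLF13 segments are thicker and the KLF5 segment thinner with both siRNAs than in control.

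The remaining 17 genes of the KLF and SP family, which share the zinc finger block, were mostly below the expression minimum, which 6 reached. In the average of both siRNAs 1 rose and 2 fell, with a median log2 fold change of 0.00 beside 0.01 over all tested genes. That is 3 of 6 called, near the 47.5% of all tested genes. KLF7, a factor of neuronal differentiation, rose with siRNA 2 and was at 2.53, 2.84 and 2.84 FPKM with siRNA 1, 10.2, 11.3 and 9.86 FPKM with siRNA 2, and 2.29, 2.55 and 2.02 FPKM in control. In log2 units that is 2.14 ± 0.10 for siRNA 2 (adjusted p = 1.14e-06) and 0.23 ± 0.10 for siRNA 1 (adjusted p = 0.0859). SP3, a GC-box factor, fell with each siRNA (-0.28 ± 0.06 under siRNA 1, -1.26 ± 0.06 under siRNA 2). SP1, its ubiquitous relative, fell under siRNA 1 (-0.36 ± 0.06) and stood at -0.11 ± 0.06 under siRNA 2 (adjusted p = 0.181). KLF14, KLF17 and KLF18 were listed at 0.0001 FPKM in all 9 libraries, the table's value for no count.

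All 16 genes listed as partners of Kruppel-like factors were tested, among them corepressors, coactivators and ubiquitin ligases. In the average of both siRNAs 2 were called higher and 5 lower, with a median log2 fold change of -0.18 beside 0.01 over all tested genes. With 47.5% of all tested genes called in that comparison (23.0% higher, 24.5% lower), 7 of 16 is near the background. CTBP2, a corepressor that KLF3 binds, had log2 fold changes of -0.75 ± 0.17 with siRNA 1 and -0.69 ± 0.17 with siRNA 2, both past the threshold. FBXW7, the ubiquitin ligase adaptor that targets KLF5 for degradation, was at 0.878 ± 0.0635 FPKM with siRNA 1 and 1.08 ± 0.0994 FPKM with siRNA 2, against 0.679 ± 0.0563 FPKM in control (SD, n = 3). It is among the 2 counted as higher, but it reached 1 FPKM in its 3 siRNA 2 libraries alone. FBXW7 so passed the expression minimum through the group where it was highest. Its log2 fold changes of 0.34 ± 0.12 with siRNA 1 and 0.60 ± 0.12 with siRNA 2, and its place in that count, are therefore a description. KAT2B, an acetyltransferase, rose by 0.76 ± 0.13 with siRNA 1 and had 0.22 ± 0.13 with siRNA 2 (adjusted p = 0.186). SIN3A and SIN3B, the scaffold of KLF9, KLF10, KLF11 and KLF13 repression, had averages of 0.03 ± 0.06 and -0.17 ± 0.10 that missed the threshold, while SIN3B alone fell with siRNA 1 (-0.37 ± 0.11, adjusted p = 0.0282). Both were chosen for mention after their values were seen.

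Of 22 genes described elsewhere as targets of Kruppel-like factors, 13 were tested, and 3 rose and 6 fell in the average of both siRNAs, where 23.0% of all tested genes rose and 24.5% fell. Their median log2 fold change was -0.25 beside 0.01 over all tested genes. CCND1, cyclin D1 and a described KLF5 target, had 146 FPKM with siRNA 1, 132 with siRNA 2 and 223 in control, and fell with each (-0.64 ± 0.06 with siRNA 1, -0.82 ± 0.06 with siRNA 2). PDGFA, a growth factor gene that KLF5 activates in smooth muscle, fell likewise (-0.62 ± 0.10 with siRNA 1, -0.81 ± 0.10 with siRNA 2). LGALS3, galectin-3, a gene repressed by KLF3 in mouse, had log2 fold changes of -3.12 ± 0.31 with siRNA 1 and -2.46 ± 0.30 with siRNA 2. It is among the 6 counted as lower, but it passed the expression minimum through its 3 control libraries, the group where it was highest. Its values are therefore a description. CDKN1A, the cell cycle inhibitor that KLF4 and KLF6 activate, was lower with siRNA 2 (-1.99 ± 0.17) and stood at -0.39 ± 0.16 under siRNA 1 (adjusted p = 0.0869). These targets, named by adjusted p, were all lower in the average. Named here beyond that rule, the 3 that rose in the average were BIRC5 (0.41 ± 0.11), ENG (0.28 ± 0.08) and BCAT2 (0.22 ± 0.08). The list was chosen from general knowledge of other tissues, and none of these values says which factor acts on which gene. Regulating members are given only for the genes named as lower, so how the targets of KLF5 moved as a set is not shown.

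For the 3 members with the smallest adjusted p in the average, the genes whose log2 CPM followed them most closely over the 9 libraries were ranked by Pearson correlation, as a description, since the 9 points share 3 group means. PCIF1 (r = 0.996), FSTL1 (0.996) and the sterol oxidase gene MSMO1 (0.992) were most like KLF5, and FSTL1, a secreted glycoprotein gene, was at 6.75 FPKM with siRNA 1, 13.3 with siRNA 2 and 33.3 in control. The correlation does not compare the size of changes. PCIF1 had log2 fold changes of -0.81 with siRNA 1 and -0.49 with siRNA 2, against -2.83 and -1.74 for KLF5. SLITRK6 (0.997), the actin nucleator gene SPIRE1 (0.997) and the ganglioside synthase gene B4GALNT1 (0.996) were most like KLF13. SLITRK6 was low, at 0.970 FPKM with siRNA 1, 1.86 with siRNA 2 and 0.316 in control. It passed the expression minimum through knockdown libraries, where KLF13 was also higher. PABPC4, which encodes a poly(A)-binding protein, TXNRD3 and TMEM18 (each 0.995) were most like KLF10, and PABPC4 was at 26.7 FPKM with siRNA 1, 27.5 with siRNA 2 and 15.7 in control.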

How the data were processed

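RNA sequencing libraries from VCaP cells, 3 for each of 3 groups, came as a single deposited file with 9 expected count columns and 9 FPKM columns, named per the file headers. The deposited counts are whole numbers, not normalized, and low values pile up near multiples of 4. The FPKM values are the authors' own, and 0.0001 stands in them for no count. Bowtie 0.12.2 and 2 builds, mm8 and hg38, appear per the submitters' processing notes, which give them no role; the counting tool and annotation are not stated. The files' coordinates lie on hg38: 3 of the 10 members have the same start and end in GENCODE 29 (GRCh38), and the others differ slightly.

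Genes with at least 1 FPKM in at least 3 libraries were tested (12830). Counts were already whole, so rounding changed no value. The test was edgeR 4.0.16 (R 4.3.3; limma 3.58.1, DESeq2 1.42.0) with TMM factors and quasi-likelihood F tests, 1 mean per group over all 9 libraries, 2-sided, with Benjamini-Hochberg adjustment at 0.05. SE is the log2 fold change over the square root of F. Mean ± SD is over 3 libraries. The fit was tested on simulated counts. Within groups, libraries differed by far more than counting noise, with Pearson r of 0.966 to 0.976 between replicates.

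The members and gene lists were chosen with earlier results of these data known. Named genes are the 10 members, KMT2C, up to 4 called genes of each list, taken by adjusted p in the average, and the 3 genes most like each of 3 members. Genes named beyond the rule are said to be so. A gene that the rule names is not reported here. Overlaps were read from exons of GENCODE 29, and promoter windows were matched by symbol for 8 of the 10 members; KLF3 had no entry, and KLF10 is not shown. Alternatives tried were DESeq2, RLE scaling, quantile normalization, other filters, counts divided by 4, limma on log2(FPKM + 1) and log2(FPKM + 0.1), fits of only the groups compared, a replicate block, and leaving out each library. Fitted fold changes rest on 215 to 10555 counts per library for the tested members, and close to 4 counts appear to stand for 1 fragment.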

Additional observations from a re-analysis of the deposited data

Results flagged for a closer look

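The effect of siRNA 1 against control differed from that of siRNA 2 in 5 of the 9 tested Kruppel-like factors, by the direct edgeR quasi-likelihood test of siRNA 1 against siRNA 2 with Benjamini-Hochberg adjustment over all tested genes. The differences of the log2 fold changes, siRNA 1 minus siRNA 2, were -1.09 for KLF5, -0.57 for KLF13, -0.40 for KLF9, 0.62 for KLF11 and 0.28 for KLF15. For KLF5 and KLF13 both siRNAs moved the gene the same way and by different amounts, and for KLF9, KLF11 and KLF15 a single siRNA was called. Among all tested genes 39.5% were called in this comparison. The share of counts from mitochondrial genes also differed between the groups, at 8.25% to 9.61% with siRNA 1, 12.0% to 12.2% with siRNA 2 and 10.2% to 11.1% in control, and its part in these differences was not tested.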

How the results depend on the processing

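The count of called members and of called genes stayed within 1.5 times its main value in each comparison and each alternative that gave one. Leaving out 1 library at a time, called members ranged from 6 to 7 with siRNA 1, 7 to 7 with siRNA 2, 6 to 7 in the average and 4 to 5 between the siRNAs, and called genes from 4511 to 5082, 5508 to 6706, 5175 to 6273 and 4109 to 4981. KLF3, KLF5, KLF6, KLF10 and KLF13 kept their direction and their call with each siRNA in all 19 alternatives. Signs turned only in values that were not called. KLF11 with siRNA 1 (0.0024) became -0.0126 with DESeq2, -0.0124 with RLE scaling, -0.0018 with quantile normalization, -0.0093 with edgeR's own filter and -0.0017 with only the groups compared. KLF9 with siRNA 2 (-0.0057) became 0.10 with quantile normalization, 0.0431 on log2(FPKM + 1) and 0.0456 on log2(FPKM + 0.1). The KLF10 difference between the siRNAs (0.0011) became -0.0029 with DESeq2, -0.0029 with RLE scaling, -0.0502 with quantile normalization, -0.0247 on log2(FPKM + 1), -0.0268 on log2(FPKM + 0.1) and -0.0072 with only the groups compared. Leaving out 1 library at a time, KLF11 and KLF15 with siRNA 1 ranged from -0.0263 to 0.0248 and from -0.0721 to 0.0024, KLF4 and KLF9 with siRNA 2 from -0.338 to 0.0344 and from -0.0628 to 0.0669, and the KLF10 difference from -0.0648 to 0.0549. KLF15 in the average (-0.18, adjusted p = 0.0545) was called with DESeq2 (-0.19), RLE scaling (-0.19) and edgeR's own filter (-0.21), with adjusted p of 0.0257 to 0.151 over its 18 alternatives. On log2(FPKM + 1), where the pseudocount shrinks low genes, the KLF5 difference between the siRNAs was -0.64 and KLF11 and KLF6 with siRNA 2 were -0.38 and -0.39. Deviations from group means of same-numbered libraries correlated at -0.07 to 0.04, and those of differently numbered libraries at -0.08 to 0.09. These values show no shared deviation, but whether same-numbered libraries were handled together is not stated in the labels. With the replicate block, 7, 7, 6 and 5 members and 5007, 6070, 5838 and 4766 genes were called in the 4 comparisons. Depth limits KLF2 above all, with 61 to 225 counts per library.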

Other observations

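CYP1A1, a xenobiotic-metabolising enzyme gene on the list of described targets, was chosen here after its values were seen. It fell by 1.09 ± 0.10 on the log2 scale with siRNA 1 (adjusted p = 1.03e-04) and rose by 0.87 ± 0.10 with siRNA 2 (adjusted p = 1.70e-04), by edgeR's quasi-likelihood test, at 1.36 FPKM with siRNA 1, 5.43 FPKM with siRNA 2 and 2.86 FPKM in control.

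The 10 promoter windows of the 8 matched members, of 250 bases each, held GGGCGG in 8 cases, CACCC in 4, CCAAT in 5, TATAAA in 1 and TGACGTCA in 1, counting either strand. Over all 35116 windows the shares were 42.6%, 54.7%, 32.0%, 10.7% and 1.65%. The windows of KLF2 and KLF15 had 80.0% and 80.4% GC.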
